A study of Mus musculus with 14 samples.

Results

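The forkhead genes were followed through a hypoxia time course of chromatin access in a mouse mammary tumor line. They were taken as every protein-coding gene of the mm9 annotation whose symbol is Fox, 1 letter and a number, which gave 42 genes of 22367. At their loci, from 20 kb before to 20 kb after each gene body, lay 185 of the 108795 regions found in any peak list. Bulk ATAC-seq, in which a transposase cuts and tags open DNA, was done on 4T1 cells, an established line from a BALB/c mammary carcinoma. There were 2 samples labelled as normoxia and 2 samples at 1% oxygen for each of 6 durations (6 or 12 h, and 24, 36, 48 or 72 h), 14 in all, with no transgene or other treatment named. The treatment text of the normoxia samples repeats the 1% oxygen protocol, while in the protein staining done on the same line the control cells were kept at 5% oxygen. The labels do not give the oxygen level of the ATAC-seq controls. The authors merged the 2 samples of a group before calling peaks. Each condition is therefore a single list with no replicate error, and no test between conditions could be made.

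Forkhead proteins bind DNA through a winged-helix domain. FOXA proteins are pioneer factors that open closed chromatin, FOXO proteins are held out of the nucleus by AKT and switch on stress and cell cycle arrest genes, FOXM1 drives genes of mitosis, and FOXP proteins pair through a leucine zipper and mostly repress. Many other members are switched on in 1 lineage of the embryo and stay silent elsewhere. In mammary tissue FOXA1 works with the estrogen receptor in luminal cells, while FOXC1 is known from basal-like tumors. The study followed the forkhead motif, named for Foxp1, among the motifs it related to hypoxia in tumor cells, and the time course asks how low oxygen itself changes access in this line.

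The 7 lists held 49006 to 81732 peaks, with the fewest at 6 h and the most at 12 h. Reads at a summit were recovered as whole numbers from the deposited columns. Over the regions in all 7 lists their median was 26 in normoxia and 31 to 52 in hypoxia. The smallest peak called had 5 reads in normoxia and 7 to 11 in hypoxia. The lowest local background of a called peak was 0.926 in normoxia, 3.25 at 6 h and 1.85 to 2.52 at the other times. The lists thus differed in both reads and background, and median summit reads alone do not rank them by depth. The label of an epithelial tumor line was checked on promoter peaks of marker genes. All 6 epithelial markers, among them Epcam, Cdh1 and Krt8, had a peak in every list, and none of the 4 leukocyte markers had one in any. Of the 3 endothelial markers, Pecam1 had a peak at 12, 36 and 48 h only, and of the 3 fibroblast markers Pdgfra had one in all 7 lists. In a pool of cells, a site open in fewer cells and a site less open in each cell cannot be told apart.

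Of the 42 forkhead promoters (within 1 kb of an annotated start), 19 had a peak in all 7 lists, which is 45.2% against 46.6% of all protein-coding genes. In 20, or 47.6%, there was no peak in any list, against 42.3% of all genes. Another 3, or 7.14%, had no normoxia peak and a peak in some hypoxia list, against 6.63% of all genes, and 0 had a normoxia peak that was missing from a hypoxia list, against 4.44%. With the full lists these shares lie near those of all genes, but among the 20000 strongest peaks of each list 11.9% of members against 25.2% of all genes had a peak in all 7. The lists hold only peaks past the caller's threshold, so a promoter without a peak is not shown to be closed. The number of forkhead promoters with a peak was 19 in normoxia and 19 or 20 at each hypoxia time.

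By subfamily, all 4 FOXO genes (Foxo1, Foxo3, Foxo4, Foxo6), all 3 FOXJ genes (Foxj1, Foxj2, Foxj3), both FOXK genes (Foxk1, Foxk2), Foxm1 and Foxq1 had one in all 7 lists. Foxa1 and Foxa3 of 3 FOXA genes, Foxn2 and Foxn3 of 4 FOXN genes, Foxp1 and Foxp4 of 4 FOXP genes, Foxc1 of 2 and Foxd2 of 4 also had a peak in every list. No peak was listed at the promoters of Foxa2 (endoderm and node), Foxb1, Foxd1 (kidney stroma), Foxd3 (neural crest), Foxd4, Foxe1 (thyroid), Foxe3 (lens), Foxf2 (mesenchyme) and Foxh1 (the partner of Smad proteins in nodal signaling). The same held for Foxi1 and Foxi3, Foxl2 (ovary), Foxn1 (thymic epithelium), Foxn4 (retina), Foxp2 (brain), Foxp3 (regulatory T cells), Foxr1, Foxr2 and Foxs1.

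**Figure D1:**
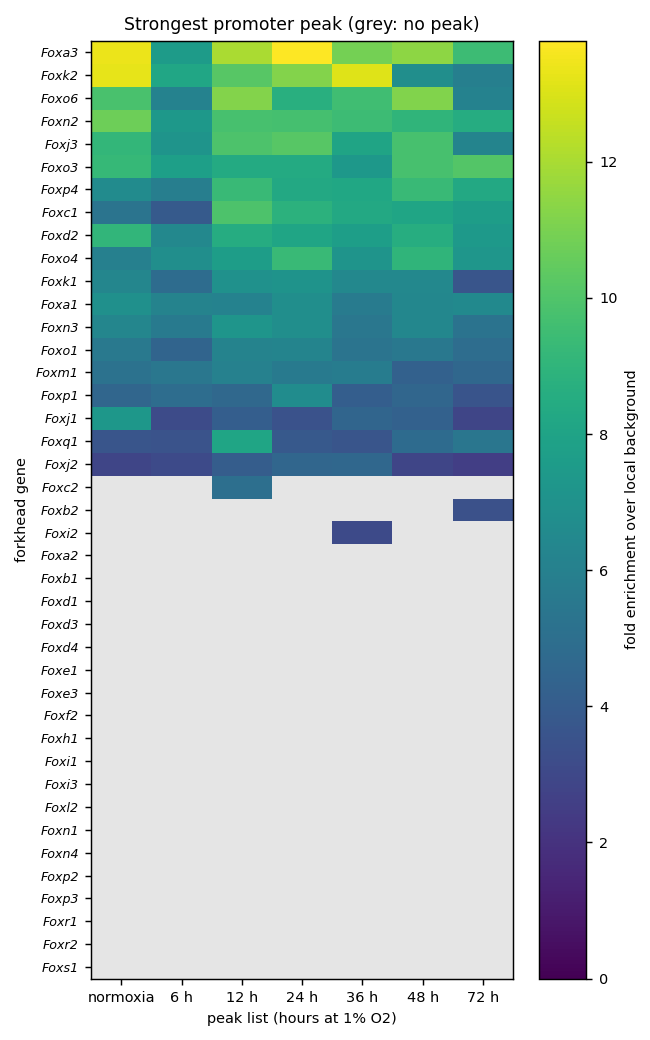
Fold enrichment over local background of the strongest promoter peak of each forkhead gene named here (rows) in the 7 peak lists (columns, normoxia and hours at 1% oxygen), with grey where no peak was listed. The upper 19 rows are filled in every list, 3 rows hold a single peak and the others are grey throughout.

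Many forkhead promoters without a peak were rich in CpG. The ratio of observed to expected CpG from 250 bp before to 50 bp after the start, at the highest start of a gene, had a median of 0.943 in the 19 open forkhead genes and 0.621 in the 20 without a peak. Over all protein-coding genes it was 0.859 with a peak in all 7 lists and 0.277 with none. A ratio of at least 0.6 was found in 12 of the 20 forkhead genes without a peak, or 60.0%, against 19.6% of all genes without a peak. Members without a peak and with a high ratio were Foxp2 (1.16), Foxi3 (0.871), Foxd3 (0.793), Foxf2 (0.787) and Foxa2 (0.767), all of them genes of development. At the start, the reverse case was Foxn3, open in all 7 lists with a ratio of 0.294. Its summit, however, lay 534 to 653 bp downstream of the start in every list but that of 72 h. Within 100 bp of its strongest summit the ratio was 0.72 and the GC share 70.65%. The low ratio at the start thus does not describe the DNA at that summit.

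**Figure D2:**
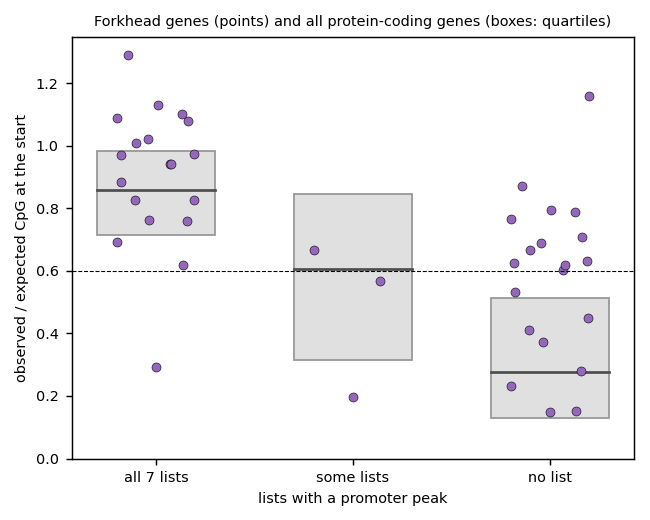
Ratio of observed to expected CpG at the start (y axis, from 0) by the lists in which the promoter had a peak (x axis). Points are the 42 forkhead genes, boxes the quartiles and lines the medians of all protein-coding genes, and the dashed line marks 0.6; the forkhead genes without a peak (median 0.621) sit mostly above the median of all genes without one (0.277).

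Fold enrichment in a list is reads at the summit plus 1 over local background plus 1. Ranked within each list among all promoter peaks, the 19 open forkhead genes had a median percentile of 43.4, against 54.4 for the 10426 genes open in all 7 lists. The highest was Foxa3, a liver and gut member of the FOXA group, at percentile 79.7. Its fold enrichment was 13.4 in normoxia and 7.59, 12.1, 13.8, 10.9, 11.5 and 9.47 from 6 to 72 h. The summit lay at -790 to -750 bp from the Foxa3 start and 49 to 89 bp from the start of Sympk, so this peak cannot be assigned to 1 of the 2 genes. The Foxm1 summit was likewise nearer to the start of another gene, 5930416I19Rik, at 3 to 59 bp, so that peak cannot be assigned to 1 gene either. Unlike the Foxa3 summit, it lay within 250 bp of a start of its own gene in every list. Another Foxm1 start, at chr6:128315723, also had a peak in all 7 lists, with a highest fold of 4.61.

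The next was Foxk2, a repressor linked to nutrient sensing, at percentile 65.2, with folds of 13.2, 8.15, 10.2, 11.2, 13.1, 6.82 and 5.96 in the same order of lists. Its lowest values were those at 48 and 72 h, with 23 and 20 reads against 30 in normoxia and a list-scaled ratio to normoxia of 0.542 in both. Foxo6, the brain-rich FOXO gene, stood at 57.2 with 9.84, 6.12, 11.2, 8.71, 9.53, 11.2 and 6.12. Foxn2, at 56.8, had 10.7, 7.37, 9.77, 9.69, 9.47, 8.99 and 8.56. Each of these was lower in raw fold at 6 h than in normoxia, and so was the median over the regions shared by all lists, which went from 8.19 to 5.85. Foxj3, at 51.7, had 9.14, 7.12, 9.91, 10.2, 8.04, 9.77 and 6.22. Foxo3, which switches on arrest and stress genes, stood at 50.7 with 9.21, 7.78, 8.40, 8.44, 7.36, 9.75 and 10.1. At Foxo3 the highest value was that of 72 h and the lowest that of 36 h. These summits lay 986 bp upstream of the nearest Foxo3 start in normoxia and 1014 to 1055 bp upstream in hypoxia. The hypoxia summits were thus beyond 1 kb, though their peaks reached into the promoter window. Each list held 2 peaks at this promoter, and the folds are those of the stronger.

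To compare lists, each promoter's fold was divided by its list's median over the genes open in all 7 lists and then by the normoxia value. On this list-scaled ratio 0 of the 19 forkhead promoters were at least 1.5 times stronger in all 6 hypoxia lists, against 0.211% of the 10426 genes, and 0 were weaker by that factor, against 0.0480%. Above normoxia in all 6 lists were Foxj2, Foxo1, Foxo4, Foxp4 and Foxq1, 5 of 19 against 14.7% of all genes. Below in all 6 were Foxd2, Foxj1 and Foxn2, 3 of 19 against 14.1%. The 19 promoters had a median of 1.04 for their median ratio over the 6 times, and all genes had 0.995.

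The remaining FOXO promoters lay above normoxia throughout on this scale. Foxo1, which drives gluconeogenic and arrest genes, had folds of 5.59 in normoxia and 4.46, 6.14, 6.19, 5.32, 5.51 and 4.92 from 6 to 72 h, with ratios of only 1.04 to 1.11. Foxo4 had 6.0 in normoxia and 6.82, 7.66, 9.32, 7.14, 9.04 and 7.25, with ratios of 1.24 to 1.59. Foxo4 was thus above normoxia in raw fold too, while Foxo1 was above it there at 12 and 24 h only. Foxp4, a FOXP gene of lung and gut epithelium, had 6.65 in normoxia and 5.92, 9.32, 8.33, 8.23, 9.34 and 8.31, with ratios of 1.17 to 1.5. Foxj2 had the weakest normoxia promoter peak of the 19, at 2.89, and 3.11, 4.05, 4.54, 4.58, 2.90 and 2.57 in hypoxia. Its ratio ran from 1.06 to 1.74, highest at 36 h. The strongest Foxj2 summit lay 798 bp downstream of the start at 72 h and within 84 bp of it in the other lists. The 72 h ratio of 1.07 therefore compares different summits.

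These other members stayed within 1.5 times of normoxia in every list on this scale. Foxa1, the luminal pioneer factor, had folds of 6.94, 6.14, 6.12, 6.82, 5.75, 6.38 and 6.53 in normoxia and from 6 to 72 h. Foxd2 had 9.07, 6.42, 8.55, 8.08, 7.73, 8.60 and 7.41, and Foxn3, a checkpoint repressor, had 6.30, 5.65, 7.18, 6.80, 5.48, 6.38 and 5.27. Foxk1, the paralog of Foxk2, had 6.34, 4.88, 6.96, 7.08, 6.45, 6.41 and 3.66, with its lowest value at 72 h. Foxm1 had 5.20, 5.48, 6.05, 5.62, 5.80, 4.29 and 4.58, with list-scaled ratios from 0.869 at 48 h to 1.39 at 6 h. At 12 of the 19 promoters the median summit lay within 250 bp of a start of the gene, the exceptions being Foxa1, Foxa3, Foxd2, Foxn3, Foxo3, Foxo4 and Foxo6.

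Foxc1 and Foxj1 passed a factor of 1.5 in 5 of the 6 hypoxia lists and were singled out after their values were seen. Foxc1, a mesenchymal and basal-like factor, had folds of 5.33 in normoxia, 3.91 at 6 h and then 9.92, 8.86, 8.29, 8.10 and 7.65 from 12 to 72 h. Its list-scaled ratio was 0.966 at 6 h and 1.60 to 1.82 at the 5 later times. The summits held 17 reads in normoxia and 19, 48, 38, 34, 40 and 29 in hypoxia. A ratio of at least 1.5 in at least 5 hypoxia lists was found in 1 of the 19 forkhead promoters and 0.796% of all genes. Scaled by reads instead of fold, however, the Foxc1 ratio was 0.937 at 6 h and 1.27 to 1.53 later, and the exact Poisson intervals of the scaled reads overlapped that of normoxia in every list.

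Foxj1, the master switch of motile cilia, went the other way. Its promoter fold was 7.32 in normoxia and 3.16, 4.12, 3.45, 4.50, 4.29 and 2.89 in hypoxia, with 23 reads in normoxia and 18, 20, 11, 24, 20 and 12 in hypoxia. All 6 hypoxia values were lower, with list-scaled ratios from 0.470 to 0.671. A ratio lower by that factor in at least 5 lists was found in 1 of the 19 and in 0.173% of all genes. The 48 h summit lay 449 bp upstream of the start, and the others within 125 bp of it. The 48 h ratio of 0.617 therefore compares different summits, and it is among the 5 lists counted. By scaled reads the ratio to normoxia was 0.311 to 0.798, and the counting interval lay apart from that of normoxia at 24 h only. Foxq1, also singled out afterwards, had folds of 3.63, 3.53, 8.08, 3.87, 3.61, 4.83 and 5.40 and its highest ratio, 2.17, at 12 h, from 6 reads in normoxia.

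**Figure D3:**
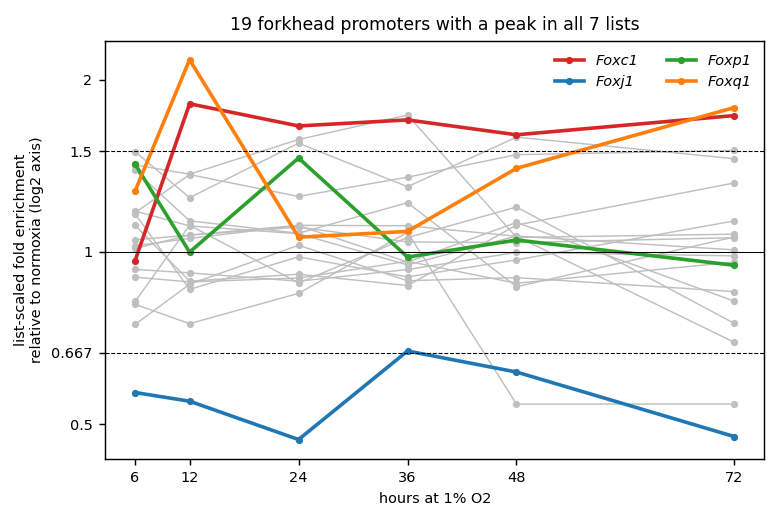
List-scaled promoter fold enrichment relative to normoxia (y axis, log2 scale) against hours at 1% oxygen (x axis) for the 19 forkhead genes open in all 7 lists, with 4 in color and the dashed lines at 1.5 times up and down. Foxc1 stays at 1.60 to 1.82 from 12 h on and Foxj1 at 0.470 to 0.671 throughout. The lists are pooled, so no error bars can be drawn.

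The 250 bases before the Foxc1 start (mm9, chr13:31898265-31898514, plus strand) and the Foxj1 start (chr11:116196714-116196963, minus strand) are shown because these promoters held the summits described, and were 70.8% and 68.8% GC. Both were searched on both strands for the letters TGTTTAC (forkhead), ACGTG (HIF), TGANTCA (AP-1) and GGAATG (TEAD), and capitals mark the only match, a TEAD one at Foxj1. Both lines read from 5′ to 3′ on the strand of the gene, and neither overlaps an annotated exon. The Foxc1 summit of normoxia and the Foxj1 summits of 48 and 72 h lay outside these bases.
Foxc1 upstream: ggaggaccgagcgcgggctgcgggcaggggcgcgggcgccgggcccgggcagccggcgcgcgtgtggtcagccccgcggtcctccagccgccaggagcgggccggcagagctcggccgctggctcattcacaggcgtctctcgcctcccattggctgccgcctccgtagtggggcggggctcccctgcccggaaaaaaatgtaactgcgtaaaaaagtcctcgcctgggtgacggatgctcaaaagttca
Foxj1 upstream: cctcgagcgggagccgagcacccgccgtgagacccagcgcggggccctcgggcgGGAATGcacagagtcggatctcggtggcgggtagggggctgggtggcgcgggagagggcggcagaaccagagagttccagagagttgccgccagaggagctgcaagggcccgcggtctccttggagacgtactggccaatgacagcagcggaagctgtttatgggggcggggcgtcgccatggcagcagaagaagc

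The 3 promoters new in hypoxia each had a peak in a single list. Foxc2, a factor of mesenchyme and lymphatic vessels, had a peak at 12 h only, of fold 5.05 with 19 reads, 72 bp upstream of its start. Foxb2 had one at 72 h only, of fold 3.41 with 11 reads, 944 bp upstream. Foxi2 had one at 36 h only, of fold 3.11 with 9 reads, 442 bp downstream of its start. The smallest peak called in each of those lists had 8 reads at 36 h and 9 at 72 h, so the Foxi2 and Foxb2 peaks stood near the caller's limit.

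Foxp1 was open at an internal start. Of its 10 annotated starts on chr6 (gene body chr6:98875332-99216526, minus strand), 4 had a peak in all 7 lists, and they lay 237590 to 238340 bp inside the gene from the most upstream start. At 5 others no peak was listed, the most upstream start among them. The strongest promoter peak had folds of 4.56, 4.93, 4.68, 6.68, 4.09, 4.55 and 3.59 in normoxia and from 6 to 72 h, a low rank (median percentile 9.63). The values of 24 and 48 h came from another site, 935 and 1016 bp downstream of a start that had a peak at 12, 24 and 48 h only. List-scaled, the ratio to normoxia was 0.948 to 1.46, above 1 at 6, 24 and 48 h and below at the other times.

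The Foxp1 locus also held the most regions of any member, 25, over a window of 381 kb. Of these, 8 were in all 7 lists, 1 in all 6 hypoxia lists but not normoxia, 11 in other sets of hypoxia lists only, 4 in normoxia and some hypoxia lists, and 1 in normoxia only. The 23 outside promoters lay in introns, of Foxp1 for all but 1, which was in Eif4e3. The regions of long genes are counted over a longer window, so their number is no measure of density.

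**Figure D4:**
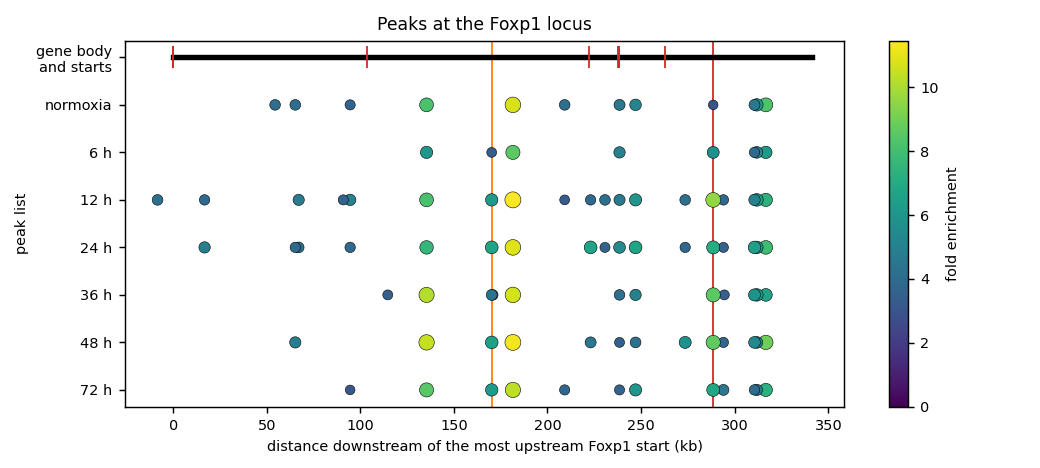
Peaks at the Foxp1 locus by distance downstream of the most upstream start (x axis, kb) in the 7 lists (rows), with dot color and size giving fold enrichment, the black bar the gene body and red ticks the annotated starts. Of the 25 regions, 1 is not drawn. The red line marks the intronic region stronger in every hypoxia list and the orange line the region with a peak at every hypoxia time but none in normoxia.

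By fold enrichment, 1 forkhead region, in an intron of Foxp1, was stronger in every hypoxia list. By summit reads in place of fold there were 3, this one and 1 each at Foxn1 and Foxn3. That is 4.17%, against 2.72% of all regions on the same measure. With peaks kept only at a −log10 q of at least 2 there were 0, against 0.531%. Among the 72 locus regions in all 7 lists, 1 was at least 1.5 times stronger than normoxia in all 6 hypoxia lists after list scaling. This share compares with 0.615% of all regions and 0.508% of those within 20 kb of a protein-coding gene. None was weaker by that factor, against 0.0969% and 0.0889%. The stronger region, chr6:98927561-98928429, lay 25687 bp from the nearest Foxp1 start. Its fold enrichment was 3.03 in normoxia and 5.68, 9.55, 7.05, 8.57, 8.67 and 6.83 from 6 to 72 h. Every hypoxia value was above the normoxia value, with list-scaled ratios from 2.20 at 24 h to 3.11 at 36 h. The summit held 5 reads in normoxia (exact Poisson 95% interval 1.62 to 11.7) and 24, 41, 20, 36, 38 and 27 in hypoxia. Divided by the median reads of their list, these were 0.192 in normoxia (0.0624 to 0.449) and 0.50 to 1.06 in hypoxia, and the interval lay above that of normoxia at 5 of the 6 times, 24 h being the exception. The region was picked out of 72 for this same difference, which favors intervals that lie apart, so they are a description and no test, and they cover counting error only. The normoxia peak had a −log10 q of 1.35, at the edge of the list, and without it the region would be listed in hypoxia only.

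Another intronic region of Foxp1, chr6:99045963-99046692, had a peak at each hypoxia time but none in normoxia. Its folds were 3.29, 6.14, 6.68, 4.41, 6.54 and 6.25 from 6 to 72 h, with 13, 20, 18, 14, 22 and 21 reads.

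**Figure D5:**
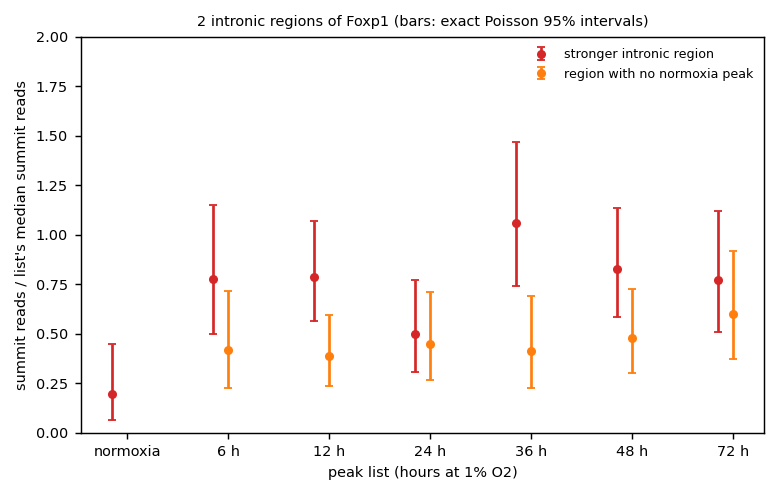
Summit reads over the median summit reads of the same list (y axis, from 0) in the 7 lists (x axis) for 2 intronic regions of Foxp1; bars are exact Poisson 95% intervals of counting error. The stronger region goes from 0.192 in normoxia to 0.50 to 1.06, and the other has no normoxia value.

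Regions present at every hypoxia time but absent from the normoxia list numbered 4 of 185, or 2.16%, against 1.5% of all regions and 1.42% of those near genes. The other 3 lay in an intron of Foxn4, a retinal and spinal interneuron factor (chr5:114719860-114720311), in intergenic DNA at the Foxp4 locus (chr17:47990697-47991150), and in intergenic DNA at the Foxl2 locus (chr9:98877408-98878003). The Foxn4 region had folds of 3.90, 5.09, 5.97, 3.63, 5.40 and 4.26, the Foxp4 region 4.00, 6.29, 4.22, 3.42, 5.68 and 4.54, and the Foxl2 region 2.72, 5.12, 4.70, 2.89, 3.40 and 4.89. The promoters of Foxn4 and Foxl2 had no peak in any list. The start nearest to the Foxp4 region was that of Mdfi, at 19316 bp, and the one nearest to the Foxl2 region was that of Faim, at 9043 bp. The median scaled reads of the 6 hypoxia lists would correspond to 10.4 normoxia reads at the Foxp4 region and 10.3 at the Foxn4 region. At the Foxp1 and Foxl2 regions they would correspond to 11.3 and 16.1. The smallest peak called in normoxia had 5 reads. Whether the depth or background of the normoxia list had a part in the absence of these 4 regions was not tested.

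The 201 bases around the strongest summit of each region that was stronger or listed only in hypoxia follow, all mm9, plus strand, 5′ to 3′. Capitals mark matches to the 4 sets of letters given above. An AP-1 match was present in 3 of the 5 regions, and none of the 5 had a HIF or forkhead match. These letters were present within 100 bp of the summit in 37.4% (AP-1), 11.4% (HIF), 3.06% (forkhead) and 16.5% (TEAD) of all 108795 regions. A match is a description of letters and does not show binding.
Foxp1 intron, stronger in hypoxia, chr6:98927887-98928087: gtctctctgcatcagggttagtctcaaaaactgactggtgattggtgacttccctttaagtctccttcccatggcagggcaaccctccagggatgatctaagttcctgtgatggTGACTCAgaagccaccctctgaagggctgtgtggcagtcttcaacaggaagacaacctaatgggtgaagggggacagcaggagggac
Foxp1 intron, hypoxia lists only, chr6:99046239-99046439: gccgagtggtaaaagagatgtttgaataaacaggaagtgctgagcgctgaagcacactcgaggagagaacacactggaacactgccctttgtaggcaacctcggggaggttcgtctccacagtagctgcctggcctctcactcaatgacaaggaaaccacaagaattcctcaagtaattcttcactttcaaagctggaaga
Foxn4 intron, hypoxia lists only, chr5:114719977-114720177: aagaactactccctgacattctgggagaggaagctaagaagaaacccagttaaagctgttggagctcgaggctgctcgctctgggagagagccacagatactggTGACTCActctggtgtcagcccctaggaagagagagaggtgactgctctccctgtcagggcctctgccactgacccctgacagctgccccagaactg
Foxp4 locus, intergenic, hypoxia lists only, chr17:47990856-47991056: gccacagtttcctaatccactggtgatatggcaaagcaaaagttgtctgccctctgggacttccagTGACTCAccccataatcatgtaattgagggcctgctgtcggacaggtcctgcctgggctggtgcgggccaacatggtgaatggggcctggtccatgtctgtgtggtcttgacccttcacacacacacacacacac
Foxl2 locus, intergenic, hypoxia lists only, chr9:98877649-98877849: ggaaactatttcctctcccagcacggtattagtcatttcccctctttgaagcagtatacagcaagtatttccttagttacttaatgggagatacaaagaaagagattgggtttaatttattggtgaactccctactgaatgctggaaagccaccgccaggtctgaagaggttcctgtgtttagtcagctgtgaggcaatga

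Over all 185 locus regions, AP-1 letters were found in 48, or 25.9%, HIF letters in 19, or 10.3%, TEAD letters in 20, or 10.8%, and forkhead letters in 2, or 1.08%. Outside promoters the AP-1 share was 32.1% of 134 regions. The matching share over all regions outside promoters was not computed. The 2 regions with forkhead letters lay at the Foxp4 and Foxl2 loci, and none of the 25 regions at Foxp1 held them. With 2 matches these shares are only a description.

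Regions of normoxia only were 8 of 185, or 4.32%, against 2.75% of all regions and 2.70% of those near genes. They lay in introns of Foxo3, Foxp1 and Foxn2, in a UTR of Foxn4, in a coding exon of 5930416I19Rik at the Foxm1 locus, and between genes at Foxc1, Foxa2 and Foxn2. Of these, 7 held 5 to 8 reads and the one at the Foxm1 locus held 21, with folds from 2.36 there to 4.67 at Foxc1. The smallest peak called had 7 to 11 reads in the hypoxia lists, and the part of depth and threshold in these absences was not tested.

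The other regions ranged from those in every list to those in a single one. In all 7 lists were 72 of 185, or 38.9%, against 33.2% of all regions and 35.9% of those near genes. In a single list were 50, or 27.0%, against 26.6% of all regions. The median list-scaled ratio of the 72 was between 0.975 and 1.06 at each time. By place, 29 lay at a forkhead promoter, 22 at the promoter of another gene and 134 outside promoters, of which 73 were intronic and 54 intergenic. The 42 loci had a median of 3 regions each against 4 for all genes, or 4.84 against 5.82 per 100 kb. No region was found at Foxb1, Foxd1, Foxe1, Foxi1 and Foxi3, which is 11.9% of the members against 12.9% of genes. Of the 20 members without a promoter peak, 15 had a region within the window and 4, Foxe3, Foxl2, Foxn1 and Foxs1, had a region outside promoters in all 7 lists. The matching shares among all genes without a promoter peak are not given here. Foxe3 shares its window with the open gene Foxd2.

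Among the strongest regions outside promoters that had a peak in all 7 lists were 5 at FOXN and FOXA genes. A coding exon of Foxn2 (chr17:88861808-88862657) had folds of 13.9, 9.55, 13.3, 12.1, 11.8, 11.5 and 11.7 in normoxia and from 6 to 72 h. Its list-scaled ratio was below 1 at all 6 times, from 0.820 to 0.996. An intergenic region near Foxn2 (chr17:88908112-88909084), nearest to the start of Klraq1, had 11.1, 10.1, 11.8, 12.3, 10.7, 11.5 and 10.7. At Foxn3, an intronic region that also lies in 3300002A11Rik (chr12:100594572-100595540) had 13.2, 9.01, 12.4, 13.0, 8.97, 11.4 and 11.7. An intergenic region near Foxn3 (chr12:100421423-100422096) had 11.4, 6.35, 14.6, 13.7, 8.09, 11.9 and 9.45, and one near Foxa3 (chr7:19595830-19596638) had 10.2, 7.68, 12.6, 14.1, 11.3, 12.0 and 8.03. After list scaling neither of the last 2 kept 1 direction against normoxia, with ratios of 0.781 to 1.17 near Foxn3 and 0.937 to 1.31 near Foxa3. By scaled reads in place of fold, the region near Foxa3 was above normoxia at all 6 times, with ratios of 1.06 to 1.54.

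The genes around the FOXO and FOXM1 proteins were open almost throughout. All 15 FOXO regulators (kinases and cofactors such as Akt1 and Sirt1) and all 10 FOXM1 targets (mitotic genes such as Ccnb1 and Plk1) had a promoter peak in all 7 lists. Of 17 FOXO targets, 15 did, and the share over all protein-coding genes was 46.6%. Bcl6, a repressor known from germinal center B cells, had folds of 3.61, 4.02, 4.59, 4.63, 4.07 and 2.46 from normoxia to 48 h and no peak at 72 h, and Trim63, a muscle ubiquitin ligase, had no peak in any list. None of the 40 genes open in all 7 lists was 1.5 times stronger or weaker in all 6 hypoxia lists, against 0.211% and 0.0480% of all genes. Above normoxia in all 6 were the deubiquitinase gene Usp7 among regulators, Cited2, Irs2 and Pink1 among FOXO targets and Cdc20 among FOXM1 targets, 5 of 40 against 14.7% of all genes. Below in all 6 were Sirt1 among regulators and Birc5, Ccnb1 and Nek2 among FOXM1 targets, 4 of 40 against 14.1%. Both counts lie near the shares of all genes. The median over genes of the median ratio was 0.967 for regulators, 1.10 for FOXO targets and 0.924 for FOXM1 targets, against 0.995 for all genes. Cited2, which competes with HIF for its coactivator, had folds of 3.73, 4.61, 4.27, 4.65, 4.41, 5.30 and 3.87.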

How the data were processed

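Bulk ATAC-seq of 4T1 cells covered 14 samples in 7 groups of 2, grouped by their labels. Per the labels and methods, the authors mapped trimmed read pairs to the mm9 genome (Bowtie2 2.1.0) and kept only proper pairs of high mapping quality. They took out duplicates (Picard 1.79) and mitochondrial reads, merged replicates and called narrow peaks with MACS2 (version not given in the sources used here). In the deposited lists, fold enrichment is summit reads plus 1 over the local background plus 1 and is not scaled between lists. The deposited −log10 p and −log10 q columns are those of the peak caller. The lowest −log10 q in each list corresponded to a q of 0.05, looser than the methods state for bulk samples.

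Overlapping or touching peaks were merged into regions, and the strongest summit stood for a region in a list. Summit reads were the whole numbers that give both the fold and p, and intervals are exact Poisson at 95%. List scaling divided a value by its list's median over features in all 7 lists. Genes, exons and sequence came from GENCODE on NCBIM37, the assembly of mm9, whose chromosome lengths hold every peak. Code was tested on simulated summits, regions and motifs. Named items were members open in some lists only, the 6 highest by median percentile, Foxp1, the 6 strongest regions outside promoters and every region stronger, weaker, or in hypoxia or normoxia lists only; Foxc1, Foxj1, Foxq1 and the other promoters with a peak in all 7 lists were described after their values were seen. Some items that these rules name are not reported here. The members, lists and rules were chosen with earlier results of these data known. Scripts ran in Python 3.11.15 with pandas 2.3.3, scipy 1.17.1, numpy 2.4.6 and matplotlib 3.10.9.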

Additional observations from a re-analysis of the deposited data

How the results depend on the processing

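Of 67 values recomputed under stricter peaks, other windows and other scalings, 51 stayed within 1.5 times of the value reported and 16 moved beyond it. The count of regions stronger in all 6 hypoxia lists, 1 in the report, fell to 0 at a −log10 q of at least 2 and at 5. It was also 0 among the 20000 strongest peaks of each list. Over all regions in all 7 lists the shares at these 3 settings were 0.531%, 0.1635% and 0.0%. With summit reads in place of fold the count was 3, or 4.17% against 2.72% of all regions. At a −log10 q of at least 2 the normoxia peak of the Foxp1 region, at 1.35, is no longer listed. Regions in all 6 hypoxia lists and not normoxia went from 4 to 6 at a −log10 q of at least 2, or 3.39% against 1.52% of all regions. They went to 2 at a −log10 q of at least 5, among the 20000 strongest and within 10 kb of the gene bodies. In that order these were 1.6%, 3.45% and 1.35% of locus regions, against 1.72%, 1.78% and 1.5% of all regions. Regions of normoxia only went from 8 to 2 at a −log10 q of at least 5, or 1.6% against 1.655% of all regions. Among the 20000 strongest they went to 0, against 3.02%. Normoxia promoters missing in hypoxia went from 0 to 1 at a −log10 q of at least 5, or 2.38% against 5.51% of all genes. Among the 20000 strongest they were 5, or 11.9% against 8.58%. With promoters of 5 kb they were 3, or 7.14% against 6.53%. There 13 members in place of 20 had no peak in any list, or 31.0% against 30.4%. Among the 20000 strongest peaks, 5 promoters in place of 19 were in all 7 lists, or 11.9% against 25.2% of all genes. In the same setting 5 in place of 3 were new in hypoxia, or 11.9% against 7.1% of all genes. Regions in all 7 lists were 26 in place of 72, or 44.8% against 43.0% of all regions. Stricter lists hold fewer peaks, and the cause of these moves was not tested. Leaving out the 6 h list, adding Foxf1a, merging peaks within 200 bp, requiring the summit within 1 kb and a factor of 2 moved no count by over 1.5 times. No paired analysis was possible because the replicates of each group were merged before peaks were called, and single replicates could not be left out for the same reason. Depth limits the weakest peaks: the lists call a peak from 5 to 11 reads upward.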

Other observations

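Foxf1a, a gene of lung and gut mesenchyme whose symbol ends in a letter and which was therefore not counted among the 42, had a promoter peak in 5 lists. Its folds were 4.67, 5.39, 3.51, 5.72 and 3.69 at 6, 12, 24, 36 and 48 h, with no peak in normoxia or at 72 h.

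By summit reads scaled to the list, an intronic region of Foxn1 (chr11:78183669-78184300) and one of Foxn3 (chr12:100615278-100615874) joined the Foxp1 region as stronger in all 6 hypoxia lists. The Foxn1 region had 5 reads in normoxia and 19, 22, 15, 18, 14 and 17 from 6 to 72 h, and the Foxn3 region 8 in normoxia and 17, 25, 20, 23, 30 and 23. Their counting intervals overlapped that of normoxia in every list. Both rest on few normoxia reads.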
